A study of Mus musculus with 4 samples.

Results

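The 7 epithelial microRNA genes described here were Mir200a, Mir200b, Mir429, Mir200c, Mir141, Mir205 and Mir203, and every accessible chromatin region found by FAIRE-seq within 50 kb to either side of each gene was taken. FAIRE-seq sequences the DNA that is recovered from the aqueous phase after crosslinking and shearing, and a FAIRE-positive region (peak) is a stretch in which those fragments pile up above the local background. When overlapping peaks of all libraries were merged, 11 of 35796 regions lay in these windows. The windows of neighbouring genes overlapped, so the 7 genes formed 4 loci, which were the mir-200b cluster, the mir-200c cluster, mir-205 and mir-203. The genes were taken by name as microRNAs of epithelial cells, and the windows by distance alone.

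EpRas cells, a mouse mammary gland epithelial line, were used in all 4 groups, and every group carried active H-Ras. Cells received control siRNA and no TGF-β (siControl untreated), control siRNA and TGF-β (siControl TGF-β), or TGF-β together with set 1 or set 2 of siRNAs against Etv4 and Etv5, which encode ETS family transcription factors. TGF-β was given as TGF-beta3 at 1 ng/ml, and all samples were taken at 4 days. Each group had 1 peak list, called a library here, and no separate list per replicate, so the comparisons are between libraries and carry no p-value. RNA levels were not analysed here, and the peak lists hold neither the level of any microRNA nor a check that Etv4 and Etv5 were reduced.

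MicroRNAs are cut from longer primary transcripts by Drosha with Dgcr8 and then by Dicer1, and they repress mRNAs that pair with the seed, the bases near their 5′ end. The miR-200 family and miR-205 are known in mammary and other epithelia for repressing Zeb1 and Zeb2, E-box binding repressors of epithelial genes, and Zeb1 and Zeb2 in turn repress the miR-200 genes. miR-203 is best known from stratified epithelium, where it represses Trp63.

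The mature sequences are shown with the seed, bases 2 to 8, in capitals, because the seed groups the 7 microRNAs into 4 targeting classes that cut across the loci. All 7 were matched by symbol to RefSeq on GRCm38.p6. The first group has the seed AAUACUG and 3 members, from both miR-200 clusters.
miR-200b-3p: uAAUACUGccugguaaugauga
miR-200c-3p: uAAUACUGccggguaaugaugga
miR-429-3p: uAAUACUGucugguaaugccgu
The second group has the seed AACACUG and 2 members, again 1 from each cluster.
miR-200a-3p: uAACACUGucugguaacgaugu
miR-141-3p: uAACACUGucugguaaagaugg
The other two microRNAs each have a seed of their own.
miR-205-5p: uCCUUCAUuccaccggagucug
miR-203-3p: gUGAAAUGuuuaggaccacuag
Counted from the 5′ end, the seeds of miR-200b-3p and miR-141-3p differ by the single substitution U4C. Over their whole length, miR-200b-3p and miR-200c-3p differ at 2 of 22 compared bases, and so do miR-200a-3p and miR-141-3p, so both microRNAs of the mir-200c cluster have a near copy in the mir-200b cluster. miR-205-5p and miR-203-3p differ from one another at 19 of 22 bases.

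In mm10, Mir429 lies at chr4:156053905-156053987, Mir200a at chr4:156054896-156054985 and Mir200b at chr4:156055681-156055750, all on the minus strand. Their hairpins are 908 and 695 bp apart, and all 3 lie within Ttll10, a gene of the tubulin tyrosine ligase-like family, and within the non-coding gene Gm13648. Mir141 at chr6:124717914-124717985 and Mir200c at chr6:124718322-124718390 are 336 bp apart on the minus strand, within the non-coding gene Gm15884. Mir205 at chr1:193507463-193507530 lies on the minus strand within 4631405K08Rik. Mir203 at chr12:112130880-112130955 lies on the plus strand, in no other annotated gene.

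The lists held 22247 peaks in siControl untreated, 28754 in siControl TGF-β, 22516 with set 1 and 14925 with set 2, from an estimated 15.3 to 20.7 M reads. Set 2 had the shortest list at 1.27 times the depth of siControl TGF-β, with a median fold enrichment of 7.15 against 8.44. Fold enrichment is the signal at the summit over the local background, and the fragments at each summit were recovered from it and from the deposited p-value. The weakest peak called outside the mitochondrial chromosome held 10 fragments in siControl untreated, 11 in siControl TGF-β, 11 with set 1 and 12 with set 2. A region missing from a list was therefore not shown to be closed, only not to have passed the limit. As a check of the cell type, promoter peaks within 2 kb of the start site were counted at 7 epithelial marker genes. They were called for 6 of 7 in siControl untreated and for 3 of 7 in each TGF-β library. These 3 were Krt8, Krt18 and Krt14 in siControl TGF-β and set 1, and Cdh1, Krt8 and Krt14 with set 2. Of all 21938 protein-coding genes, 36.1% had a promoter peak in siControl untreated, 38.1% in siControl TGF-β, 34.2% with set 1 and 27.3% with set 2. None of the 3 haematopoietic markers had one in any library. Of 5 mesenchymal marker promoters 2 were called in each library, namely Fn1 in all 4, Vim in the 3 TGF-β libraries and Pdgfra in siControl untreated alone, and of 2 endothelial ones that of Pecam1 in siControl TGF-β alone. Krt5, a basal keratin, had no region within 50 kb in any library. Krt14, also a basal keratin, had a promoter peak in all 4, with 22 fragments in siControl untreated, 33 in siControl TGF-β, 25 with set 1 and 20 with set 2. In bulk samples such as these, fewer cells with an open region and less opening per cell cannot be told apart.

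Accessible chromatin was unevenly spread over the 4 loci. The mir-200c cluster had 8 regions and mir-203 had 3, whereas the mir-200b cluster and mir-205 had none in any of the 4 libraries. No region overlapped or touched a hairpin of the 7 members, and the share over all microRNA genes was not computed. The closest regions lay 4.69 kb from Mir203 and 5.60 kb from Mir141. Over all 2202 annotated mouse microRNA genes, 33.5% had no region within 50 kb and the median was 2, so the 4 genes without a region (Mir200a, Mir200b, Mir429 and Mir205) were in a common class. The 8 regions around Mir200c and Mir141 were reached or exceeded by 8.76% of microRNA genes, and the 3 around Mir203 by 38.6%. The plot of all microRNA genes places the 7 members in this distribution.

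**Figure D1:**
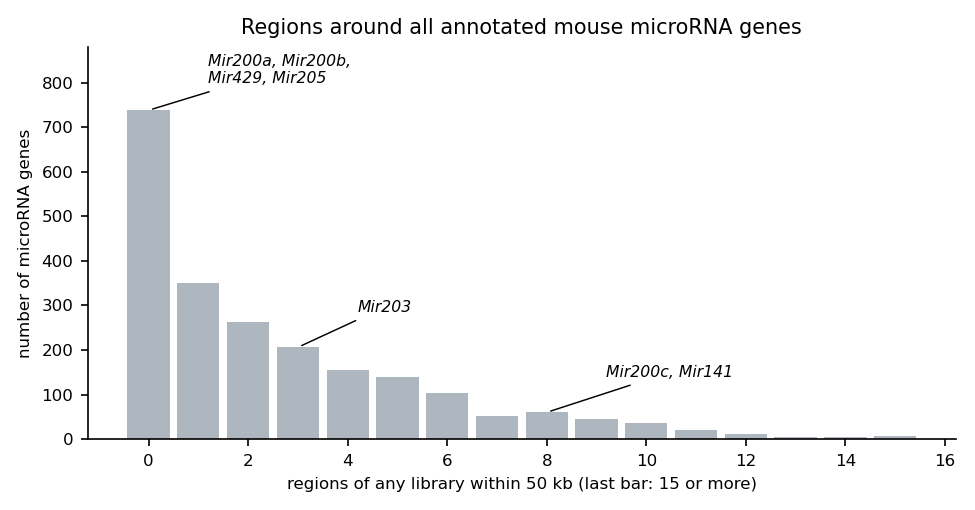
Bars give the number of annotated mouse microRNA genes (vertical axis) by the number of merged regions of any library within 50 kb (horizontal axis, the last bar holding 15 or more). Mir200a, Mir200b, Mir429 and Mir205 sit in the bar of 738 genes with no region, Mir203 at 3 regions and Mir200c and Mir141 at 8.

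**Figure D2:**
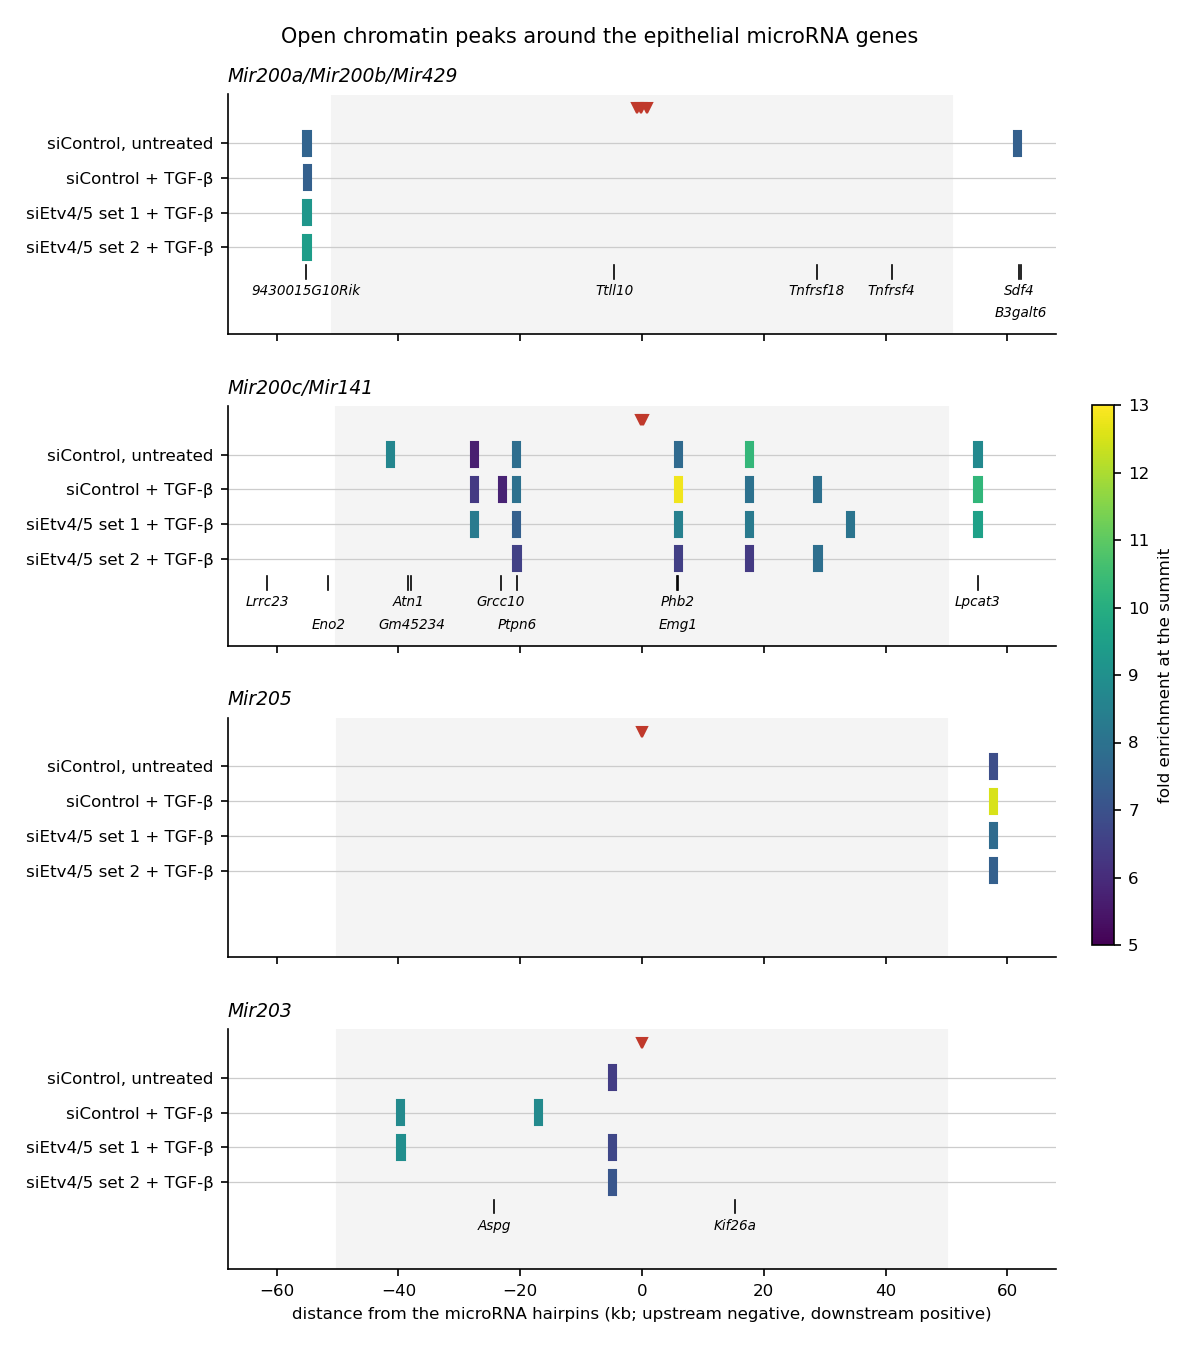
Peaks of the 4 libraries (rows) around each locus, by distance in kb from the hairpins (red triangles; upstream negative), with bars widened for visibility and coloured by fold enrichment. Grey marks the windows of 50 kb, and ticks mark start sites of protein-coding genes. The mir-200b and mir-205 windows are empty, and the nearest peaks there lie just outside the grey.

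At the mir-200b cluster, chr4:156003905-156105750, none of the 3 protein-coding genes that start in the window had a peak at its promoter. These were Ttll10 itself and the immune receptor genes Tnfrsf18 and Tnfrsf4. The nearest peak was called in all 4 libraries, 54.0 kb upstream of Mir200b, at chr4:156109726-156109903 in siControl TGF-β. Its fold enrichment was 7.56 in siControl untreated, 7.42 in siControl TGF-β, 9.20 with set 1 and 9.43 with set 2. It lay just beyond the window, at the promoter of the neighbouring gene 9430015G10Rik, and its call in every library contrasts with the empty window.

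At mir-205, chr1:193457463-193557530, no protein-coding gene starts in the window. The nearest peak lay 57.6 to 57.7 kb downstream and was also called in all 4 libraries, at chr1:193449646-193449830 in siControl TGF-β. It held 16 summit fragments in siControl untreated, 30 in siControl TGF-β, 20 with set 1 and 18 with set 2. Most of the sequence in both empty windows was unique at the read length, and alignments were not examined. Of the 36-base words there, which have the length of the trimmed reads, 94.3% at the mir-200b cluster and 93.6% at mir-205 occurred once in the assembled genome, against 96.5% at the mir-200c cluster and 97.1% at mir-203. Within 2 kb of the hairpins, 99.6% of the words at the mir-200b cluster and 99.7% at mir-205 were unique.

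Counted by library, 6 peaks of siControl untreated, 8 of siControl TGF-β, 7 of set 1 and 5 of set 2 lay at the 4 loci. As shares of each list, these were 0.0270% (95% Wilson interval 0.0124 to 0.0588), 0.0278% (0.0141 to 0.0549), 0.0311% (0.0151 to 0.0642) and 0.0335% (0.0143 to 0.0784). The intervals cover counting error only and overlap widely, so no difference in share between libraries was detectable. The mir-200c cluster had 5 peaks in siControl untreated, 6 in siControl TGF-β, 5 with set 1 and 4 with set 2. mir-203 had 1, 2, 2 and 1 in the same order. Averaged over the genome, the lists held 0.816, 1.05, 0.826 and 0.548 peaks per 100 kb, and each window was about that long. Of the 11 regions, 3 were called in all 4 libraries, against 29.6% of all regions, and 4 in a single library, against 31.5%.

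The mir-200c cluster window, chr6:124667914-124768390, is dense in genes, and 4 of the 6 protein-coding genes that start in it had a region of any library at the promoter. Emg1 and Phb2 shared their region, and that of Grcc10 was called in siControl TGF-β alone. In single libraries, 27.3 to 38.1% of all protein-coding genes had a promoter peak, and the share over any library was not computed. All 3 regions called in every library were in this window. The nearest, at chr6:124712046-124712318, lay 5.60 kb downstream of Mir141 and held the start site of Emg1, a ribosome biogenesis methyltransferase, beside that of the divergent gene Phb2, which encodes a mitochondrial prohibitin. Upstream of Mir200c, the first region lay at 20.2 kb.

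The Emg1 and Phb2 promoter region showed the widest spread between libraries of the 3 regions called in all of them. It held 18 summit fragments in siControl untreated (95% Poisson interval 10.7 to 28.4), 34 in siControl TGF-β (23.5 to 47.5), 19 with set 1 (11.4 to 29.7) and 19 with set 2 (11.4 to 29.7). Only siControl TGF-β stood above the rest, and in raw fragments its interval overlapped each of the others. Per M reads of the estimated depth, its interval (1.45 to 2.92) still overlapped those of siControl untreated and set 1. It lay just above that of set 2 (0.554 to 1.44), and the difference was not tested. In the order of the fragments above, fold enrichment was 7.73, 12.8, 8.45 and 6.48. The log2 ratio of fold enrichment was 0.73 for siControl TGF-β against untreated (counting error 0.42), -0.60 for set 1 against siControl TGF-β (0.41) and -0.99 for set 2 against siControl TGF-β (0.41). All 3 ratios use the 1 value of siControl TGF-β, so they are not independent. The stretch of the region that lies between the exons of both genes, as annotated by GENCODE or RefSeq, is printed because its values differed most between libraries, with matches of the ETS motif CCGGAA in capitals.
Emg1-Phb2, chr6:124712187-124712288, plus strand: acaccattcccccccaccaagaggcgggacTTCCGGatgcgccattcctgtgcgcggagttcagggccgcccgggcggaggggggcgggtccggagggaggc
It holds 1 match on the minus strand, and 3 matches lie in the 300 bp around the summit.

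The second region in all libraries, chr6:124738571-124738924, lay 20.2 kb upstream of Mir200c and held the start site of Ptpn6, which encodes a tyrosine phosphatase. It was chosen for naming after its values were seen. It had 24 fragments in siControl untreated, 26 in siControl TGF-β, 22 with set 1 and 21 with set 2. All intervals overlapped, and the log2 ratio of fold enrichment for siControl TGF-β against untreated was 0.02 with a counting error of 0.41.

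The third, chr6:124700285-124700647, lay in Lpcat3, a phospholipid-remodelling acyltransferase gene, 17.3 kb downstream of Mir141, in an exon of a non-coding isoform only. It had the highest fold enrichment of siControl untreated at the 4 loci. That was 10.3 with 26 fragments, against 7.98 with 21 in siControl TGF-β, 8.27 with 22 in set 1 and 6.35 with 21 in set 2. Its log2 ratio for siControl TGF-β against untreated was -0.37 with a counting error of 0.42, opposite in sign to that of the Emg1 and Phb2 promoter. The central 300 bases are shown because this was the strongest region of the locus away from a promoter, with the single RUNX match in capitals (TGTGGT, here on the minus strand).
Lpcat3, chr6:124700317-124700616, plus strand: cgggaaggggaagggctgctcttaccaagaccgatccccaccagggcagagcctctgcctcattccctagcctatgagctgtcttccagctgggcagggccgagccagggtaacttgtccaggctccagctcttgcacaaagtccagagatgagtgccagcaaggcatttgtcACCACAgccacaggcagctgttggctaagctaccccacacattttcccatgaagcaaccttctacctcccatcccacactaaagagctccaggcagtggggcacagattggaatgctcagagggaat
None of the other 4 motifs searched occurs in it.

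The other 5 regions of the mir-200c cluster were each called in 1 to 3 libraries. One was called in siControl untreated alone, at chr6:124759413-124759575, an intergenic stretch 41.0 kb upstream of Mir200c and 2.97 kb from the start site of Atn1, which encodes a transcriptional corepressor. It had 19 fragments and a fold enrichment of 8.67. It was the only region at the 4 loci that was called in siControl untreated and in none of the 3 TGF-β libraries. The share of all regions with this pattern was not computed, and 31.5% of all regions were called in 1 library, whichever it was. The remaining 4 had at most a fold enrichment of 8.31. Of these, chosen after their values were seen, a region in the untranslated part of Grcc10 (chr6:124741020-124741174) was called in siControl TGF-β alone with 21 fragments, and an Lpcat3 intronic region (chr6:124683809-124683966) with set 1 alone with 19. A coding part of Atn1 (chr6:124745538-124745764) had 14 fragments in siControl untreated, 16 in siControl TGF-β and 20 with set 1, and was not called with set 2. A region in another Lpcat3 intron (chr6:124689122-124689381) had 18 in siControl TGF-β and 21 with set 2. Just outside the window, 55.0 kb from the cluster, the Lpcat3 promoter was called in 3 libraries and was missing from the set 2 list.

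**Figure D3:**
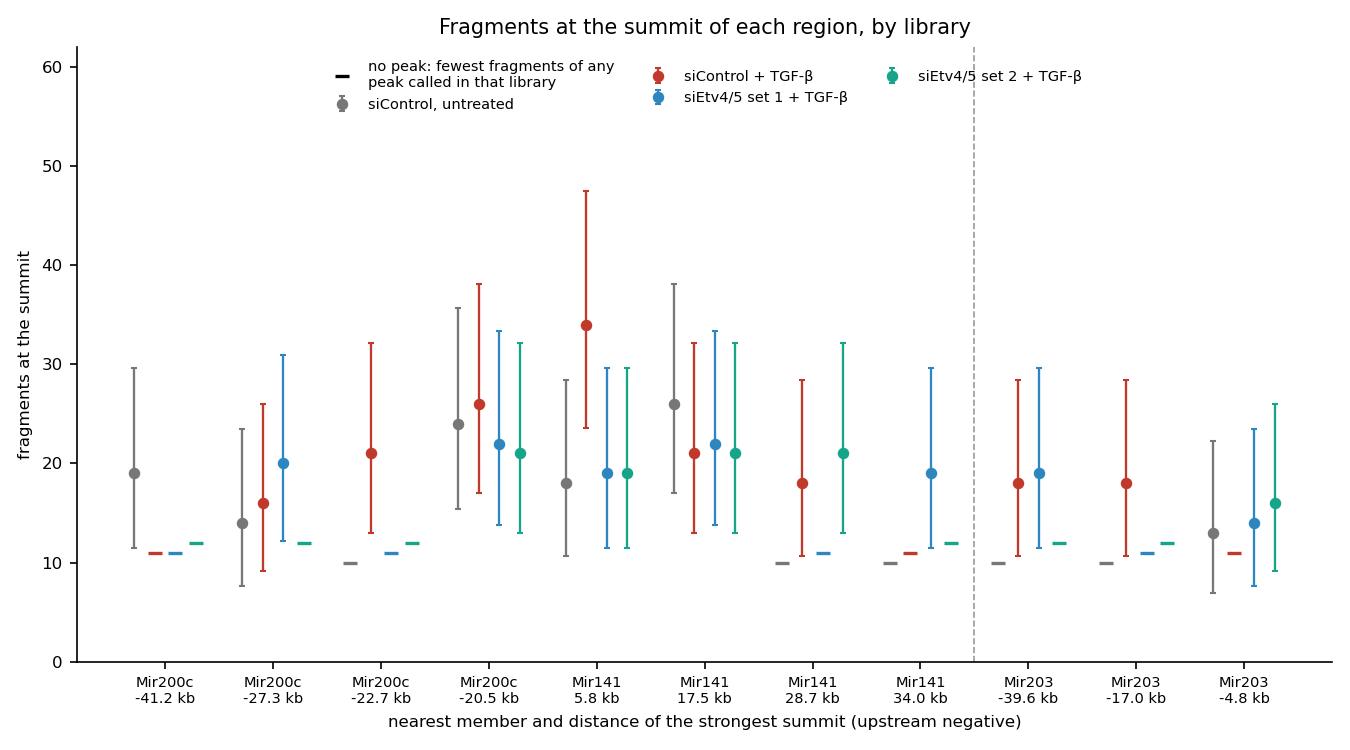
Fragments at the summit (vertical axis) for the 11 regions, ordered by distance from the nearest member (horizontal axis, upstream negative). Points are the 1 value per library with exact 95% Poisson intervals for counting error, and dashes mark, for a library without a peak there, the fewest fragments of any peak it called. The 34 fragments of siControl TGF-β at 5.8 kb from Mir141 are the highest value, and the 13 of siControl untreated at 4.8 kb upstream of Mir203 are the lowest.

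At mir-203, chr12:112080880-112180955, neither of the 2 protein-coding genes that start in the window, Aspg (an asparaginase gene) and Kif26a (a kinesin family gene), had a region at its promoter. The region nearest to any member lay here, at chr12:112125929-112126194, in an intron of Aspg and 4.69 kb upstream of Mir203. It was called in siControl untreated with 13 fragments (95% Poisson interval 6.92 to 22.2), with set 1 with 14 (7.65 to 23.5) and with set 2 with 16 (9.15 to 26.0), and was not called in siControl TGF-β. Its fold enrichment was 6.43, 6.70 and 7.14, below the median of the list in all 3 libraries. This was the 1 region of 11 called in every library but siControl TGF-β, against 0.807% of all regions. When each list was reduced to the length of the shortest, it remained in set 2 alone, so the pattern rests on the full lists. The weakest peak that was called in siControl TGF-β held 11 fragments, so a summit of fewer fragments could not be told from none, and the 13 to 16 fragments of the other libraries were close to that limit.

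The whole region is printed because it is the closest to any of the 7 genes and its call differed between siControl TGF-β and the other libraries. The E-box CAGGTG, of the kind that Zeb and Snail repressors bind, and the AP-1 motif TGANTCA are in capitals.
Mir203 upstream, chr12:112125929-112126194, plus strand: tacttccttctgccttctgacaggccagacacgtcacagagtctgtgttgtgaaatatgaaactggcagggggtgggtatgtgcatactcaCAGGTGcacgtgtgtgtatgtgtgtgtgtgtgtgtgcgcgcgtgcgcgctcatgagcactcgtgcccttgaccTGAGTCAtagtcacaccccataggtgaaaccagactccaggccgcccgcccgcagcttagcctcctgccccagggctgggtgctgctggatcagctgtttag
It holds 1 match of each motif, and the 300 bp around its strongest summit, which reach past the region, hold 2 E-box matches. A match names letters only and does not show that a factor was bound.

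The other two regions at mir-203 were called in siControl TGF-β and not in siControl untreated. One at chr12:112091210-112091383, 39.5 kb upstream, had 18 fragments in siControl TGF-β and 19 with set 1, and was not called with set 2. The other, at chr12:112113840-112113981, 16.9 kb upstream in an Aspg intron, had 18 fragments in siControl TGF-β alone. Both had a fold enrichment of 8.81 in siControl TGF-β. No region was called within 50 kb downstream of Mir203 in any library.

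With TGF-β, 4 of the 8 siControl TGF-β peaks at the loci were gained, meaning that no untreated peak overlapped them, against 37.0% of all siControl TGF-β peaks. They were the Grcc10 region, the Lpcat3 intronic region 28.5 kb from Mir141, and both distal mir-203 regions. Of the 6 untreated peaks, 2 were lost, against 18.4% of all, namely the region near Atn1 and the one 4.69 kb upstream of Mir203. Of the 4 shared regions, 1 was at least 1.5 times higher in fold enrichment (the Emg1 and Phb2 promoter), against 5.92% of all shared regions, and 0 were at least 1.5 times lower, against 0.924%. The median log2 ratio was 0.09 at the loci and 0.12 over all 18082 shared regions. With 1 library per group and so few peaks, the counts were not tested against the background shares.

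With siEtv4/5, 3 of the 8 siControl TGF-β peaks were absent with set 1, against 33.6% of all, and 4 of 8 with set 2, against 53.6%. The set 1 library lacked the Grcc10 region, the Lpcat3 intronic region at 28.5 kb from Mir141 and the Aspg intronic region at 16.9 kb from Mir203. Set 2 lacked the Grcc10, Atn1 and both distal mir-203 regions. Among shared regions, 1 of 5 was at least 1.5 times lower with set 1, against 6.60%, and 1 of 4 with set 2, against 24.2%. It was the Emg1 and Phb2 promoter with both sets, whose ratios share the siControl TGF-β value. None was at least 1.5 times higher with either set, against 0.557% and 0.0901%. The median log2 ratio at the loci was 0.02 for set 1, against -0.16 over all shared regions, and -0.31 for set 2, against -0.38.

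**Figure D4:**
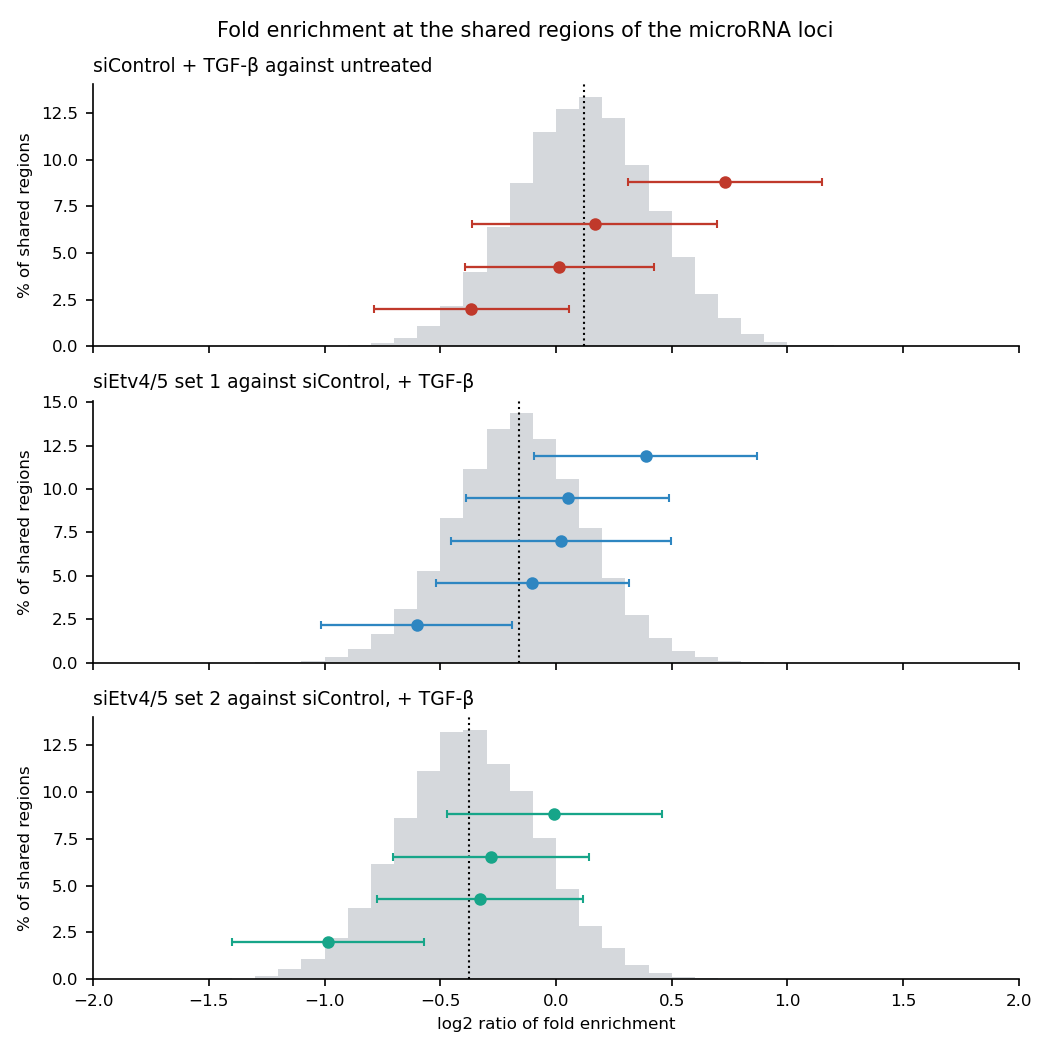
Log2 ratio of fold enrichment (horizontal axis) in 3 comparisons. Grey bars give the percentage of all shared regions in steps of 0.1, the dotted line their median, and coloured points the shared regions of the microRNA loci, with bars of 1 standard error from counting; their height only separates them. The Emg1 and Phb2 promoter is the rightmost point in the TGF-β panel, at 0.73, and the leftmost in the others, at -0.60 and -0.99. The Atn1 coding region is the rightmost point for set 1, at 0.39.

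Calls at set 1 and set 2 that siControl TGF-β lacked were also read against the background. With set 1, 2 of 7 peaks were not in siControl TGF-β, against 15.2% of all, and with set 2, 1 of 5, against 10.3%. The region 4.69 kb upstream of Mir203 was in both counts, and the other was the Lpcat3 intronic region of set 1. When each list was reduced to its 14925 peaks of lowest q-value, which removes the difference in list length, only the Emg1 and Phb2 and the Ptpn6 promoters remained in siControl TGF-β. Then 0 of 2 siControl TGF-β peaks were absent with set 1, against 31.4% of all, and 0 of 2 with set 2, against 33.4%. With TGF-β, 1 of 2 was gained, against 34.4%, and 2 of 3 untreated peaks were lost, against 34.3%. These are too few peaks to set against the shares. The gained peak was the Emg1 and Phb2 promoter, and the lost peaks were the Lpcat3 exonic region and the region near Atn1. Only the region near Atn1 was also lost in the full lists. The Emg1 and Phb2 promoter and the Lpcat3 exonic region were called in every full list.

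In base composition, the 11 regions had 48.0 to 66.8% G and C in the 500 bp around the summit, against a median of 48.6% for all regions. The Atn1 coding region and the Emg1 and Phb2 promoter were richest in CpG, with 58 and 41 dinucleotides against a median of 7. Within 300 bp around the summit and on either strand, the AP-1 motif TGANTCA was found in 3 of 11 regions against 40.4% of all regions, ETS CCGGAA in 2 against 12.3%, E-box CAGGTG in 4 against 19.6%, RUNX TGTGGT in 2 against 25.8%, and GRHL AACNNGTT in 0 against 4.60%. The ETS matches were at the Emg1 and Phb2 promoter and in Atn1. The E-box matches were at the Ptpn6 promoter, in Atn1 and in 2 regions upstream of Mir203. With 11 regions, the 95% Wilson interval of each share was wide, from 9.75 to 56.6% for AP-1 and from 15.2 to 64.6% for the E-box, and held the share of all regions.

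A list of 14 other microRNA genes that are often studied in EMT was read in the same way. Every one of them had at least 1 region within 50 kb, with a median of 7.5 and a range of 1 to 14, although genes of 1 cluster share regions. Over all 2202 microRNA genes, 33.5% had no region and the median was 2, and the list was not tested against them. Among the 14 listed genes Mir31 had the most, with 10 peaks in siControl untreated, 13 in siControl TGF-β, 9 with set 1 and 7 with set 2. Mir21a, an oncogenic microRNA, had 8, 8, 8 and 6. Mir221 and its neighbour Mir222, by contrast, had none in siControl untreated or with set 2, 2 in siControl TGF-β and 1 with set 1. Mir143 and Mir145a had 5 in siControl untreated, 3 in siControl TGF-β and in set 1, and 1 in set 2. These counts stand beside those of the 7 members in the heat map of peak counts.

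**Figure D5:**
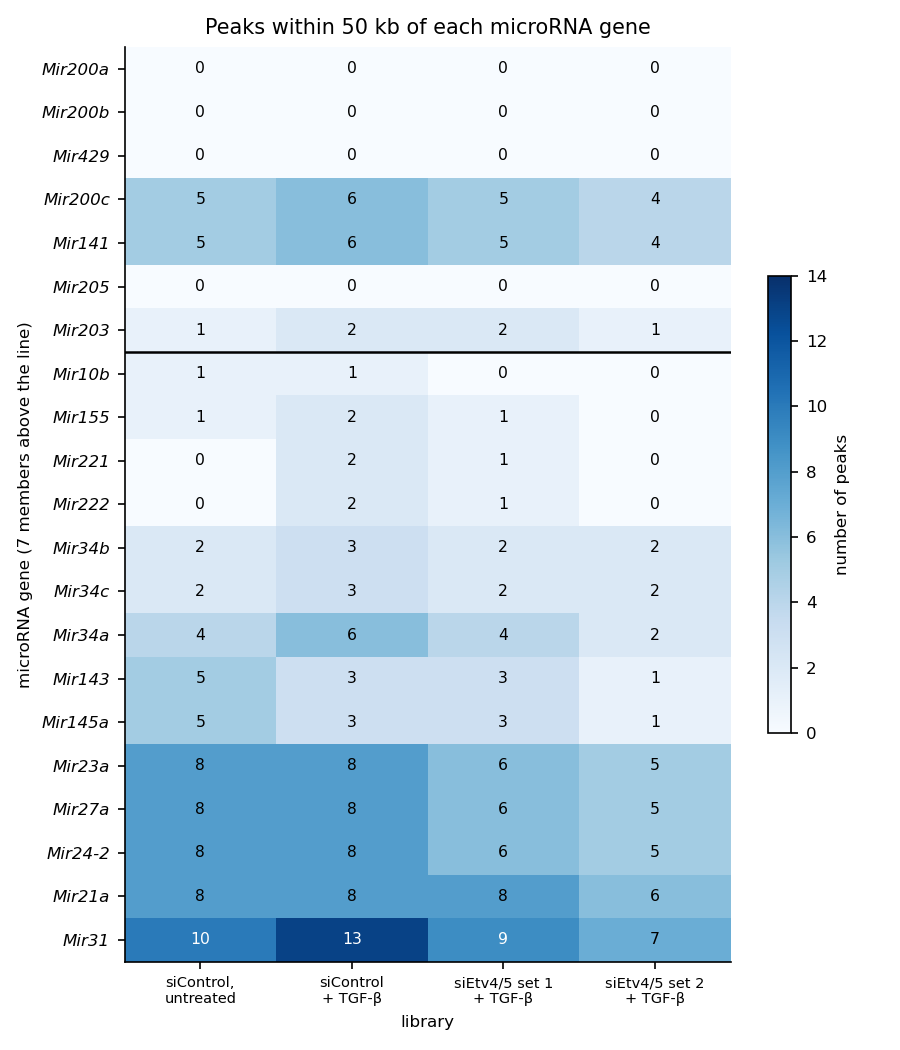
Number of peaks within 50 kb of each microRNA gene (rows) in each of the 4 libraries (columns), with the 7 members above the line and 14 other microRNA genes under it, ordered by their number of regions. The members range from 0 in 4 genes to 6 at Mir200c and Mir141 in siControl TGF-β, and the other genes reach 13 at Mir31.

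Promoter peaks of the microRNA processing genes were called in nearly every library. A peak was called at all 5 (Drosha, Dgcr8, Xpo5, Dicer1 and Ago2) in siControl untreated, siControl TGF-β and set 1, and at 4 with set 2, which lacked that of Ago2. These counts, and those of the regulators, stand beside a background of 27.3 to 38.1% of all protein-coding genes and were not tested. Drosha, the nuclear RNase, had 34 fragments in siControl untreated, 43 in siControl TGF-β, 31 with set 1 and 39 with set 2. Among regulators and targets of the family, 3 of 7 promoters were called in siControl untreated, 3 in siControl TGF-β, 1 with set 1 and 2 with set 2. That of Snai1, a repressor that drives EMT, was called in every library, with 26, 36, 25 and 29 fragments. The Zeb2 promoter was called in siControl TGF-β with 22 fragments and with set 2 with 18, and not in siControl untreated or with set 1. The Grhl2 promoter, of an epithelial transcription factor gene, was called in siControl untreated with 25 and in siControl TGF-β with 30, and with neither siRNA set. Snai2 was called in siControl untreated alone, with 22. Zeb1, Trp63 and Klf4 had no promoter peak in any library.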

How the data were processed

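Peaks had been made by the authors from Ion Proton reads trimmed to 36 bases and aligned to mm10 with bowtie2, using MACS2 (2.1.0 in the submitters' processing notes) with a q-value limit of 0.0001. The study describes biological replicates, and whether they were combined for these lists is not given in the sources used here. Each deposited peak carries the authors' fold enrichment (a ratio to local background), its -log10 p-value, its -log10 q-value and a score derived from the latter, which was not used.

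Summit fragments and background were solved from the fold enrichment, (fragments + 1)/(background + 1), and the Poisson p-value, and came out whole (tolerance 0.001 in -log10 p-value) for 100% of peaks. This step was tested on simulated data. Depth was estimated from the background floor and a genome size of 1.87 Gb. A peak belonged to a gene if it overlapped the gene ± 50 kb (GENCODE vM21). Peaks overlapping by 1 bp were merged, keeping the strongest of each library. Intervals are 95% Poisson or Wilson intervals and cover counting error only. Groups came from the labels, and with 1 library per group no test was run. Regions named with values were those within 10 kb of a member, the 2 of highest fold enrichment beyond that at each locus and those called in siControl untreated alone, and others are marked as chosen later. The genes and lists were chosen with earlier results of these data known, and the lists serve as descriptions. Alternatives were a q-value below 1e-6, windows of 25 kb, lists of equal length, an overlap of 50% of the shorter peak, fragments per M reads and motif windows of 500 bp. Python 3.11.15, pandas 2.3.3, scipy 1.17.1 and numba 0.67.0 were used.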

Additional observations from a re-analysis of the deposited data

How the results depend on the processing

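Of 42 values recomputed under an alternative, 32 stayed within 1.5 times of the value reported, or within its counting error, and 10 moved. A q-value below 1e-6, an overlap of 50% of the shorter peak, fragments per M reads and a motif window of 500 bp moved none of the values they were applied to. The q-value limit could not move them, because the weakest peak at the loci had a -log10 q-value of 6.61. With windows of 25 kb, siControl TGF-β had 5 peaks at the loci and set 1 had 4. With TGF-β, 2 of 5 peaks were gained and 1 of 4 was lost, and 2 of 5 were absent with set 2. The shares over all peaks were unchanged at 37.0%, 18.4% and 53.6%. The shorter windows hold fewer regions by construction. With lists of equal length, siControl untreated had 3 peaks and siControl TGF-β 2. Of these 2, 1 was gained, against 34.4% of all, and 0 were absent with set 1, against 31.4%, or with set 2, against 33.4%. The gained peak and 1 of the lost peaks were not the ones of the full lists. The median log2 ratio of set 1 changed sign, to -0.02 with fragments per M reads and to -0.10 with windows of 25 kb, within its counting error. No paired analysis was possible because each group had 1 library. Precision was limited by the 13 to 34 fragments at each summit.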
